A study of Mus musculus with 7 samples.

Results

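Heparan sulfate is a long sulfated sugar chain carried by core proteins at the cell surface and in the basement membrane. Enzymes of the Golgi start and lengthen the chain and then sulfate it at set positions, and the sulfation pattern governs how well growth factors such as the FGFs bind their receptors. In the epidermis the syndecans are the main cell surface carriers, and perlecan belongs to the basement membrane below the keratinocytes and around blood vessels. The 10 genes described here cover each of these steps. They are *Ext1*, a subunit of the chain polymerase, *Ndst1*, *Hs2st1*, *Hs6st1* and *Hs6st2*, which modify the chain, *Sulf1*, a secreted enzyme that removes 6-O-sulfate, and the core protein genes *Sdc1*, *Sdc4*, *Gpc1* and *Hspg2*. They were taken by symbol from 23284 gene symbols listed for every papilloma, and all 10 had an accepted estimate in all 7 papillomas and a mean of at least 0.5 FPKM (fragment counts of a gene scaled to its transcript length and to library size). The genes were chosen by their FPKM in TG against CTR papillomas, values already known from these files, so the difference between the groups is given for them as a description, without a test.

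The papillomas came from 4 CTR and 3 TG mice, 1 papilloma a mouse, all on a C57Bl/6 background. Both groups carried the *tetO-Nanog* allele, in which *Nanog* stands under a doxycycline-responsive promoter downstream of *Col1a1*, and both drank doxycycline (DOX) at 2 mg/ml while DMBA started and repeated TPA promoted the tumors. Only TG mice also carried *K5-rtTA*, a transactivator driven by the bovine keratin 5 promoter, which is active in basal keratinocytes. The mice of both groups were matched in age, and tissue was taken when the experiment ended or when a mouse reached its humane endpoint.

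*Nanog* stood at 2.70, 2.84, 12.7 and 3.34 FPKM in CTR 1 to CTR 4 and at 36.9, 57.4 and 66.9 FPKM in TG 1 to TG 3, higher in every TG papilloma. The log2 difference was 3.45 (SE 0.48), and it did not pass the adjusted test across all genes (limma adjusted p = 0.400). The widths of the deposited intervals implied between 10077008 and 15711400 reads on genes, most in CTR 3 and TG 1. TG 3 stood apart from the other papillomas: its median FPKM was 1.14, against 0.539 to 0.673, and 41.1% of the 12299 genes tested were highest in it. 6 skeletal muscle markers summed to 552 FPKM in TG 3, whereas the other papillomas ran from 1.80 to 4.89 FPKM, with all 6 highest in TG 3. For 7 fibroblast markers the sum was 684 FPKM in TG 3, against 74.9 to 130.3 in CTR, 90.7 in TG 1 and 87.9 in TG 2, with all 7 highest in TG 3. For 5 endothelial markers it was 25.8, against 6.70 to 12.4 in CTR, 17.4 in TG 1 and 9.82 in TG 2, with 4 of the 5 highest in TG 3. Sums of 3 smooth muscle markers (56.8 FPKM against at most 24.1), 6 macrophage markers (100.9 against at most 38.9) and 5 mast cell markers (8.48 against at most 5.78) were also highest in TG 3. The sum of 4 adipocyte markers, nearly all of it *Fabp4*, was 1710 FPKM in TG 3, within the CTR range of 1374 to 3228. The other 3 adipocyte markers were highest in TG 3, with *Cfd* at 26.0, *Adipoq* at 3.34 and *Plin1* at 0.824 FPKM, against at most 0.0484, 0.0338 and 0 in the other papillomas. The sum of 8 keratinocyte markers was 14141 FPKM in TG 3, below the CTR range of 17457 to 20589, and it was 27645 in TG 1 and 23518 in TG 2. *Krt14*, *Krt1*, *Krt10* and *Krt6a* lay below every CTR papilloma in TG 3. *Krt5*, at 1783 FPKM, was highest there, *Trp63* and *Perp*, at 42.1 and 1443 FPKM, lay within the CTR range, and *Dsp*, at 470 FPKM, lay above it. Keratinocyte markers made up by far the largest sum in every papilloma. In RNA from whole papillomas, fewer cells of a type and less RNA per cell cannot be told apart. Differences of the 10 genes and medians of the other lists are therefore also given without TG 3.

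On the log2(FPKM + 0.5) scale, on which all differences are given, 8 of the 10 genes had a higher mean in TG papillomas, where 60.0% of all genes tested did, and *Hs6st1* and *Hs6st2* had a lower one. Their median log2 difference was 0.41, beside 0.06 over all genes tested. In 1 of them, *Ext1*, every TG papilloma lay above every CTR papilloma, a pattern that 4.93% of all genes showed. No gene of the 10 had every TG papilloma below every CTR papilloma, which held for 2.23% of all genes. 6 of the 10 were highest in TG 3, *Hs6st1* by very little (12.20 FPKM, against 12.19 in CTR 4). Without TG 3, 7 of the 10 had a higher mean in TG, beside 46.1% of all genes, and the median log2 difference was 0.28. TG 1 and TG 2 both lay above every CTR papilloma for *Ext1* only (8.94% of all genes) and both below for *Hs6st2* only (8.97% of all genes).

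**Figure D1:**
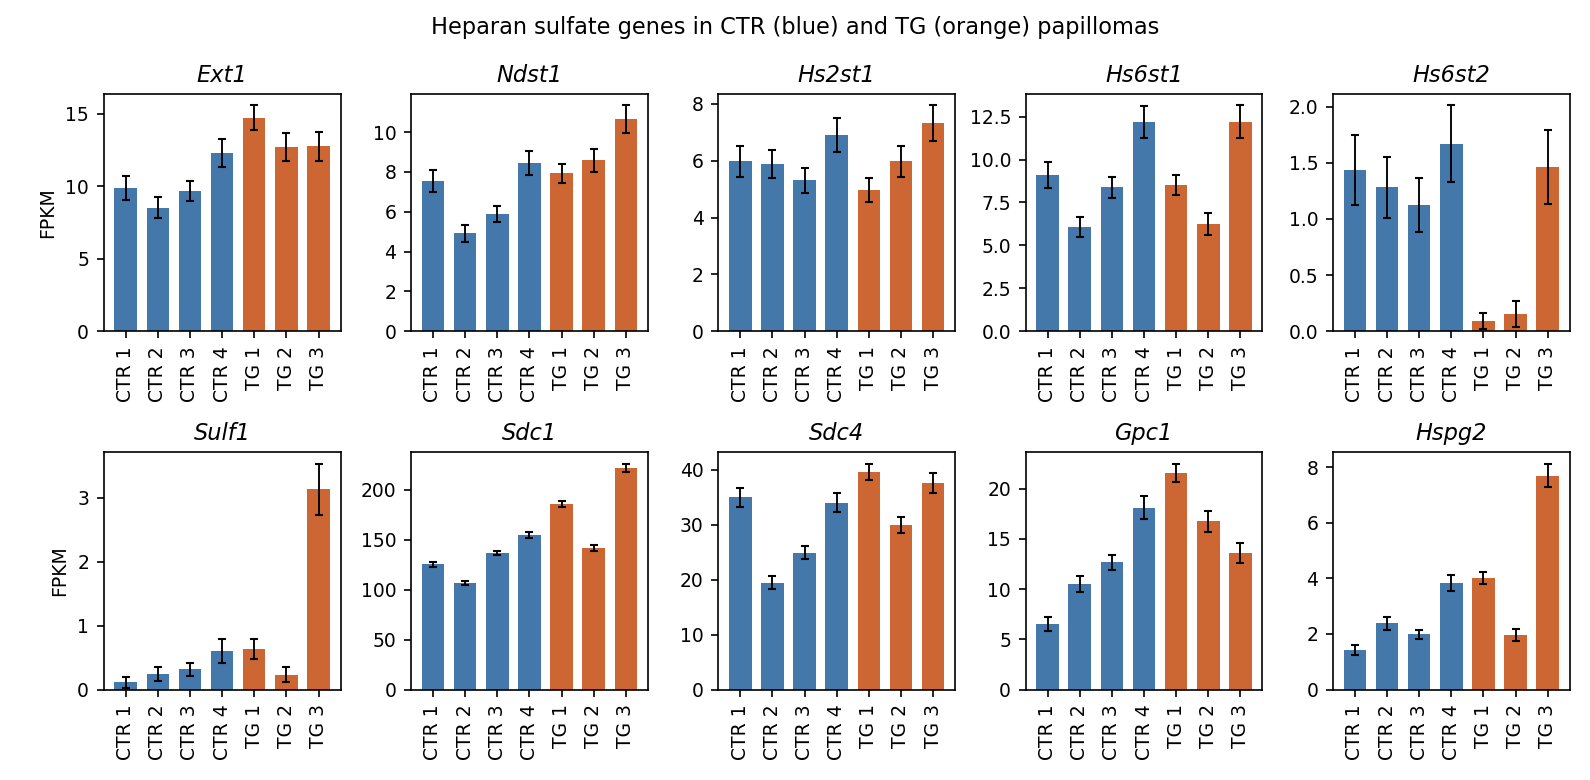
FPKM of the 10 heparan sulfate genes (vertical axes, each with its own scale) in each of 4 CTR (blue) and 3 TG (orange) papillomas, with the deposited Cufflinks interval of each library as error bars, which covers counting error and not the spread between mice. *Hs6st2* is low in TG 1 and TG 2 and at the CTR level in TG 3, *Sulf1* and *Hspg2* are highest in TG 3, and *Ext1* is higher in all TG papillomas than in any CTR papilloma.

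The level of a gene per transcript length differed far more between genes than between groups. Ordered by their mean FPKM over the 7 papillomas, the genes ran *Sdc1*, *Sdc4*, *Gpc1*, *Ext1*, *Hs6st1*, *Ndst1*, *Hs2st1*, *Hspg2*, *Hs6st2* and *Sulf1*. *Sdc1* lay 4.87-fold above *Sdc4* and was the only gene whose range over the papillomas did not overlap with that of the next gene in the order. *Sdc4* lay above *Gpc1* and *Ext1* above *Hs6st1* in 7 of 7 papillomas, although their ranges overlapped. *Hs6st2* lay above *Sulf1* in 4 of 7 papillomas. In CTR papillomas the *Sdc1* level was at percentile 98.5 of all genes and that of *Sulf1* at percentile 45.3.

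*Ext1* lies on chromosome 15, positions 53068261 to 53346183 on the minus strand (GRCm38, as for all positions given here). It encodes one of the paired glycosyltransferases that lengthen the heparan sulfate chain. *Ext1* was at 9.89, 8.52, 9.66 and 12.3 FPKM in CTR 1 to CTR 4 and at 14.7, 12.7 and 12.8 FPKM in TG 1 to TG 3. The means were 10.1 ± 1.58 (SD, n = 4) and 13.4 ± 1.15 (SD, n = 3), with a log2 difference of 0.40 (SE 0.17). The groups did not overlap, but CTR 4 and TG 2 lay close together, at 12.3 and 12.7 FPKM. Without TG 3 the log2 difference was 0.43. Its partner in the polymerase, *Ext2*, ran from 8.05 to 11.0 FPKM in CTR and from 10.7 to 13.7 in TG, and the groups overlapped (log2 difference 0.33, SE 0.17, limma adjusted p = 0.813). *Ext1* made up 50.1% to 55.2% of the summed *Ext1* and *Ext2* FPKM in CTR and 48.3% to 58.0% in TG. *Extl2* and *Extl3*, relatives of the polymerase genes, had log2 differences of -0.01 and 0.28 and also overlapped between the groups. *Extl1*, named after its values had been seen, was at 0.756 to 1.73 FPKM in CTR and at 2.40, 2.67 and 1.49 FPKM in TG 1 to TG 3. Its log2 difference of 0.63 (SE 0.27) did not pass the test (limma adjusted p = 0.720), and TG 3 lay inside the CTR range.

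*Ndst1* (chromosome 18, 60685976 to 60713389, minus strand) encodes the N-deacetylase/N-sulfotransferase that makes the first modification, on which the later sulfation steps depend. It was at 7.54, 4.91, 5.88 and 8.43 FPKM in CTR 1 to CTR 4 and at 7.92, 8.58 and 10.7 FPKM in TG 1 to TG 3. TG 2 and TG 3 lay above every CTR papilloma and TG 1 lay below CTR 4. The means were 6.69 ± 1.59 (SD, n = 4) and 9.05 ± 1.42 (SD, n = 3), with a log2 difference of 0.43 (SE 0.21), or 0.31 without TG 3. *Ndst2*, its closest relative in this tissue, ran from 2.89 to 4.70 FPKM in CTR and from 4.98 to 5.67 in TG. The *Ndst2* groups did not overlap, yet the log2 difference of 0.37 (SE 0.20) did not pass the test (limma adjusted p = 0.810). The share of *Ndst1* in the summed *Ndst1* and *Ndst2* FPKM was 57.9% to 64.2% in CTR and 60.2% to 65.6% in TG. These ranges overlapped, with TG 1 and TG 2 inside the CTR range and TG 3 above it.

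*Hs2st1* (chromosome 3, 144431107 to 144570216, minus strand), the 2-O-sulfotransferase of the uronic acid units, was at 5.98, 5.89, 5.30 and 6.90 FPKM in CTR 1 to CTR 4 and at 4.98, 5.98 and 7.31 FPKM in TG 1 to TG 3. TG 1 was the lowest and TG 3 the highest of the 7 papillomas. The means were 6.02 ± 0.660 (SD, n = 4) and 6.09 ± 1.17 (SD, n = 3), and the log2 difference of 0.01 (SE 0.18) became -0.07 under upper-quartile scaling, -0.08 under quantile normalization and -0.12 without TG 3. *Glce*, the epimerase that prepares the uronic acid for this step, had a log2 difference of -0.11, with values from 3.30 to 4.36 FPKM in CTR and 3.17 to 3.92 in TG.

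*Hs6st1* and *Hs6st2* both encode 6-O-sulfotransferases of the glucosamine units. *Hs6st1* lies on chromosome 1, 36068400 to 36106446 on the plus strand, and *Hs6st2* on the X chromosome, 51387212 to 51681602 on the minus strand. The remaining gene of the family, *Hs6st3*, was listed at 0 in 6 papillomas and at 0.0397 FPKM in CTR 2. The bases before the start sites of *Hs6st1* and *Hs6st2* are shown because the levels of these genes differed so unlike each other between TG 1, TG 2 and CTR. Each run is 250 bases long and ends right before a RefSeq transcript start (GRCm38.p6), read 5′ to 3′ on the strand of the gene. Capitals mark matches on either strand to the GC box GGGCGG, the TATA box TATAAA, the CAAT box CCAAT or the TPA response element TGANTCA, and no matches overlapped in capitals.
*Hs6st1*, chr1:36068150-36068399, plus strand: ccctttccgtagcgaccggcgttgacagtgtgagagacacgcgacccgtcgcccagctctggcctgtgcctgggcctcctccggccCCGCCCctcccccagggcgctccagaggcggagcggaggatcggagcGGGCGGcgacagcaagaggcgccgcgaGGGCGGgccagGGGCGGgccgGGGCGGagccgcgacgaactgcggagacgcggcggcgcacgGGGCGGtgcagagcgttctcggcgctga
*Hs6st2*, upstream start, chrX:51681603-51681852, minus strand: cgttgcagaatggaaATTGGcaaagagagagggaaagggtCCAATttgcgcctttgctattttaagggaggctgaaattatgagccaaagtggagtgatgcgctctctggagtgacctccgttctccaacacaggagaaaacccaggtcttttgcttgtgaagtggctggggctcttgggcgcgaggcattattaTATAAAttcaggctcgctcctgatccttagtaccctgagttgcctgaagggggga
*Hs6st2*, downstream start, chrX:51680478-51680727, minus strand: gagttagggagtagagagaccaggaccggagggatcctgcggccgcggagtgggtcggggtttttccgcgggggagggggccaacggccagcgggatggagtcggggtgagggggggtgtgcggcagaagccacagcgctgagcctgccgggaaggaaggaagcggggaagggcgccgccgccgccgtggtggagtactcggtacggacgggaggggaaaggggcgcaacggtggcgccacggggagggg
The *Hs6st1* window held 76.4% G and C, 37 CpG dinucleotides and 6 GC boxes, a motif found in 32.7% of 32851 promoter windows of the same length, whose median G and C content was 52.4%. The window before the upstream *Hs6st2* start held 50.0% G and C, 7 CpG dinucleotides, no GC box, 1 TATA box (in 12.4% of all windows) and 2 CAAT boxes (in 33.8%). The window before the downstream *Hs6st2* start held 72.0% G and C, 26 CpG dinucleotides and none of these motifs. TGANTCA, present in 6.75% of all windows, was in none of the windows found for 6 of the 10 genes, which says only that these letters are absent there. The tetramer TAAT (in 54.9% of windows) occurred 3 times before the upstream *Hs6st2* start and not in the other windows shown. The windows of *Hs2st1*, *Hspg2* and *Sdc4* held 64.4%, 70.0% and 68.0% G and C with 1, 5 and 4 GC boxes, and that of *Sdc1* held 66.0% with 3. *Ext1*, *Ndst1*, *Gpc1* and *Sulf1* had no entry.

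*Hs6st2* was at 1.44, 1.28, 1.13 and 1.67 FPKM in CTR 1 to CTR 4. In TG papillomas it was at 0.0911 FPKM in TG 1 (interval 0.0163 to 0.166), 0.156 FPKM in TG 2 (interval 0.0387 to 0.272) and 1.46 FPKM in TG 3 (interval 1.14 to 1.79). TG 1 and TG 2 lay below every CTR papilloma and their intervals did not reach those of any CTR papilloma, while TG 3 lay inside the CTR range. The intervals of the files implied 6 reads in TG 1 and 7 in TG 2, against 80 in TG 3 and 86 to 96 in the CTR papillomas. TG 1 was the deepest of the 7 libraries, and TG 2 had a depth like that of CTR 1. The means were 1.38 ± 0.233 (SD, n = 4) in CTR and 0.570 ± 0.774 (SD, n = 3) in TG, with a log2 difference of -1.03 (SE 0.41), the largest in size among the 10 genes. The CTR mean was 11.2 times the mean of TG 1 and TG 2, and without TG 3 the log2 difference was -1.58. With 0.1 in place of 0.5 added to FPKM, the difference over all 7 papillomas was -1.79.

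*Hs6st1* did not share this pattern. It was at 9.09, 6.08, 8.39 and 12.2 FPKM in CTR 1 to CTR 4 and at 8.51, 6.23 and 12.2 FPKM in TG 1 to TG 3, so the TG papillomas spanned almost the same range as the CTR papillomas. The means were 8.94 ± 2.52 (SD, n = 4) and 8.98 ± 3.02 (SD, n = 3). The log2 difference was -0.00 (SE 0.28), although the mean FPKM was slightly higher in TG, and -0.24 without TG 3. *Hs6st2* made up 13.6%, 17.4%, 11.8% and 12.1% of the summed *Hs6st1* and *Hs6st2* FPKM in CTR 1 to CTR 4. In TG 1 to TG 3 the share was 1.06%, 2.44% and 10.7%, below the CTR range in each, by little in TG 3. *Hs6st1* was thus the more abundant of the pair in all 7 papillomas.

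**Figure D2:**
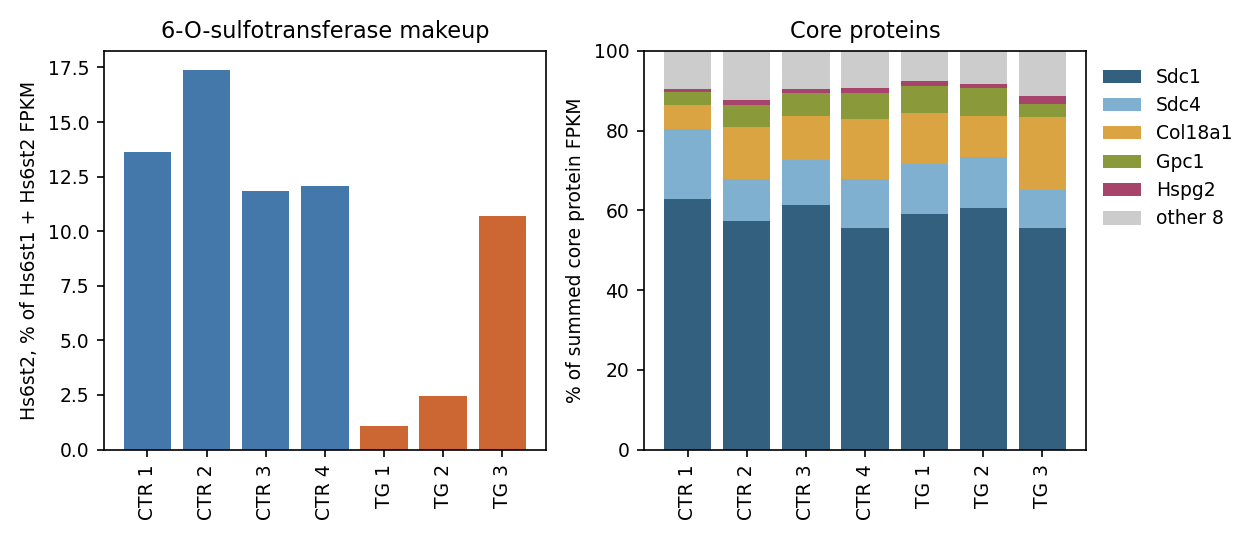
Left, *Hs6st2* as a percentage of the summed *Hs6st1* and *Hs6st2* FPKM in each papilloma (bars from 0, CTR blue and TG orange). The share is 11.8% to 17.4% in CTR, 1.06% and 2.44% in TG 1 and TG 2, and 10.7% in TG 3. Right, the share of 5 core protein genes and of 8 others in the summed FPKM of 13 core protein genes in each papilloma, in which *Sdc1* takes 55.6% to 62.8%.

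The genes whose log2 levels followed *Hs6st2* most closely over the 7 papillomas were *Ublcp1* (Pearson r = 0.980), *Zbed3* (r = 0.969) and *Rab32* (r = 0.967), picked as the 3 highest of all genes tested. *Rab32*, a small GTPase of organelle trafficking, ran from 6.94 to 10.02 FPKM in CTR and was at 2.31, 2.96 and 8.35 FPKM in TG 1 to TG 3. *Zbed3* ran from 2.16 to 2.48 FPKM in CTR and was at 0.756, 0.553 and 2.68 FPKM in TG 1 to TG 3. *Ublcp1* ran from 17.3 to 18.8 FPKM in CTR and was at 14.4, 15.02 and 17.8 FPKM in TG 1 to TG 3, a far smaller gap than that of *Hs6st2*. That the 3 genes were lower in TG 1 and TG 2 than in TG 3 follows from how they were picked.

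*Sulf1* (chromosome 1, 12692430 to 12860372, plus strand), which trims 6-O-sulfate from finished chains outside the cell, was the lowest of the 10 genes. It was at 0.112, 0.245, 0.314 and 0.601 FPKM in CTR 1 to CTR 4 and at 0.634, 0.233 and 3.13 FPKM in TG 1 to TG 3. TG 3 lay 4.94-fold above the next highest papilloma, and TG 1 and TG 2 lay near or within the CTR range. The means were 0.318 ± 0.207 (SD, n = 4) and 1.33 ± 1.57 (SD, n = 3). The log2 difference of 0.85 (SE 0.51) fell to 0.19 without TG 3. Outside TG 3, between 6 and 69 reads were implied for *Sulf1*, so its values there were imprecise, and without TG 3 its mean would not have reached 0.5 FPKM. The 3 genes most like it over the 7 papillomas were *Mmp23* (r = 0.997), *Fam20a* (r = 0.996) and *B4galt5* (r = 0.993). Each was highest in TG 3, at 3.82, 5.26 and 1.72 FPKM, and these correlations rest largely on that papilloma. *Sulf2*, the second gene of this kind, was at 11.9, 14.8, 15.4 and 20.5 FPKM in CTR 1 to CTR 4 and lower in TG 1 and TG 2, at 9.92 and 9.19 FPKM. Its estimate had failed in TG 3, so no difference is given.

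*Hpse*, the heparanase that cuts the chains, ran from 8.19 to 11.8 FPKM in CTR and was at 6.23, 5.78 and 8.33 FPKM in TG 1 to TG 3. TG 1 and TG 2 lay below every CTR papilloma and TG 3 just inside the CTR range. The log2 difference of -0.50 (SE 0.19) did not pass the test (limma adjusted p = 0.702).

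*Sdc1* (chromosome 12, 8771396 to 8793687, plus strand), the syndecan of epithelial cells, was the most abundant of the core proteins. It was at 125, 107, 137 and 155 FPKM in CTR 1 to CTR 4 and at 186, 142 and 222 FPKM in TG 1 to TG 3. TG 1 and TG 3 lay above every CTR papilloma and TG 2 lay below CTR 4. The means were 131 ± 20.2 (SD, n = 4) and 183 ± 40.2 (SD, n = 3), with a log2 difference of 0.47 (SE 0.21), or 0.32 without TG 3.

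*Sdc4* (chromosome 2, 164424247 to 164443188, minus strand), a syndecan of focal adhesions, was at 35.0, 19.5, 24.9 and 34.0 FPKM in CTR 1 to CTR 4 and at 39.6, 29.9 and 37.6 FPKM in TG 1 to TG 3. TG 1 and TG 3 lay above every CTR papilloma, and TG 2 fell in the middle of the CTR range. The means were 28.3 ± 7.45 (SD, n = 4) and 35.7 ± 5.11 (SD, n = 3), with a log2 difference of 0.36 (SE 0.23), or 0.32 without TG 3. The *Sdc1* level was 3.58 to 5.49 times the *Sdc4* level in CTR and 4.69 to 5.91 times in TG. These ranges overlapped, with TG 1 and TG 2 inside the CTR range and TG 3 above it.

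*Gpc1* (chromosome 1, 92831686 to 92860196, plus strand), a glypican held in the membrane by a lipid anchor, was at 6.54, 10.5, 12.7 and 18.1 FPKM in CTR 1 to CTR 4 and at 21.6, 16.8 and 13.6 FPKM in TG 1 to TG 3. TG 1 alone lay above every CTR papilloma, and TG 3 was the lowest of the TG papillomas, unlike for most of the 10 genes. The means were 11.95 ± 4.82 (SD, n = 4) and 17.3 ± 4.01 (SD, n = 3), with a log2 difference of 0.58 (SE 0.31) that was 0.73 without TG 3. The protein-coding gene *Ankmy1* overlaps the *Gpc1* locus on the opposite strand. The libraries were stranded, but whether strand was used in counting is not given in the sources used here, so the *Gpc1* values may hold reads of *Ankmy1*.

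*Hspg2* (chromosome 4, 137468803 to 137570630, plus strand), which encodes perlecan, was at 1.43, 2.38, 1.98 and 3.84 FPKM in CTR 1 to CTR 4 and at 4.01, 1.96 and 7.70 FPKM in TG 1 to TG 3. TG 3 was highest, 1.92-fold above the next papilloma, TG 1 lay just above CTR 4, and TG 2 lay in the lower part of the CTR range. The means were 2.41 ± 1.03 (SD, n = 4) and 4.56 ± 2.91 (SD, n = 3), with a log2 difference of 0.69 (SE 0.41) that was 0.26 without TG 3. *Col18a1*, another proteoglycan of basement membranes, was at 12.2, 24.2, 24.6 and 41.7 FPKM in CTR 1 to CTR 4 and at 40.2, 24.2 and 73.0 FPKM in TG 1 to TG 3. Its order among the papillomas was much like that of *Hspg2*, and its log2 difference of 0.81 (SE 0.45) did not pass the test (limma adjusted p = 0.820).

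**Figure D3:**
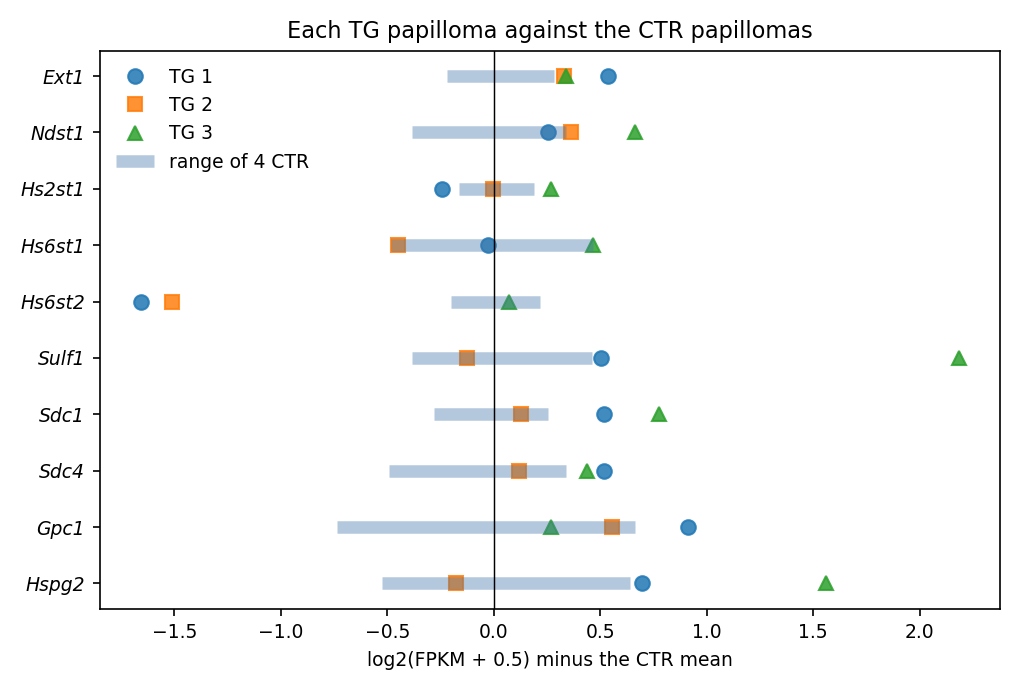
Difference of each TG papilloma from the CTR mean on the log2(FPKM + 0.5) scale (horizontal axis) for the 10 genes (vertical axis), with the range of the 4 CTR papillomas as a blue band. TG 1 and TG 2 lie far below the band for *Hs6st2*, TG 3 lies far above it for *Sulf1* and *Hspg2*, and all 3 TG papillomas lie above it for *Ext1*.

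The TG papillomas differed among themselves. TG 1 lay above every CTR papilloma for 6 of the 10 genes (22.5% of all genes) and below for 2, *Hs6st2* and *Hs2st1* (22.8% of all genes). TG 2 lay above for 2, *Ext1* and *Ndst1* (21.4%), and below for *Hs6st2* (23.6%). TG 3 lay above for 8 of the 10, beside 47.0% of all genes, and below for none (14.0%). For *Hs6st1*, counted among the 8, TG 3 and CTR 4 were nearly level, at 12.20 and 12.19 FPKM. Relative to the CTR mean, the 10 genes had a median on the log2 scale of 0.51 for TG 1, 0.06 for TG 2 and 0.45 for TG 3, and over all genes the medians were -0.03, -0.02 and 0.24. Among the CTR papillomas, CTR 4 was the highest for 9 of the 10 genes (25.7% of all genes) and CTR 2 the lowest for 5 (47.6%). CTR 4 therefore set the upper end of the CTR range against which nearly every TG value was read.

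*Hspg2* and *Sulf1* were set beside 1 vessel and 1 connective tissue marker. The ratio of *Hspg2* to *Cdh5*, an endothelial cadherin, was 0.725, 1.22, 1.58 and 1.43 in CTR 1 to CTR 4 and 1.23, 1.15 and 1.22 in TG 1 to TG 3, so the TG papillomas lay within the CTR range. The ratio of *Sulf1* to *Col1a1*, the collagen gene next to which the *tetO-Nanog* allele lies in both groups, was 0.00590 to 0.0124 in CTR and 0.0185, 0.0100 and 0.0152 in TG 1 to TG 3. TG 3, with 206 FPKM of *Col1a1* against 18.9 to 48.6 in the other papillomas, had a *Sulf1* ratio between those of TG 2 and TG 1, and TG 1 and TG 3 lay above the CTR range. Other markers were ordered differently. In TG 1, where *Sulf1* was above every CTR papilloma, the fibroblast markers *Dcn* and *Lum* were the lowest of the 7 papillomas, at 0.757 and 3.36 FPKM, and the endothelial marker *Emcn* was highest in TG 1, at 6.06 FPKM. These marker genes were chosen after their values had been seen, and their part in the differences was not tested.

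**Figure D4:**
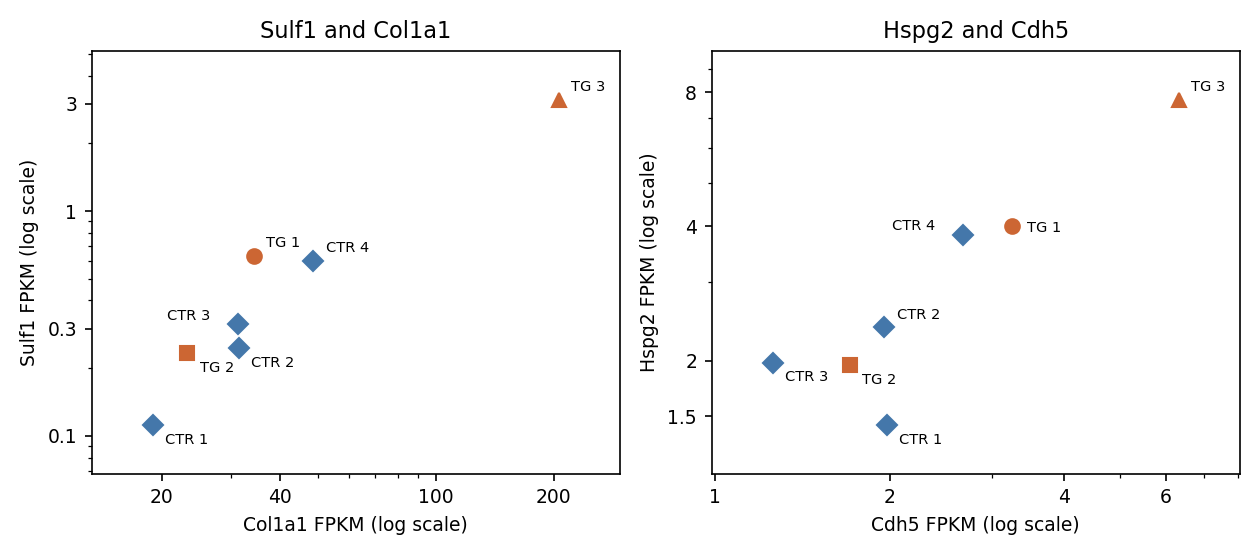
FPKM of *Sulf1* against *Col1a1* (left) and of *Hspg2* against *Cdh5* (right) in 4 CTR papillomas (blue diamonds) and TG 1 (circle), TG 2 (square) and TG 3 (triangle), all axes on a log scale. TG 3 is highest on both axes of both plots.

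The shares of the core proteins overlapped between the groups. In the summed FPKM of 13 core protein genes, *Sdc1* took 55.7% to 62.8% in CTR and 55.6% to 60.5% in TG. *Sdc4* took 10.5% to 17.5% in CTR and 9.41% to 12.8% in TG, and *Gpc1* 3.28% to 6.51% and 3.41% to 7.15%. *Hspg2* took 0.720% to 1.38% in CTR and 0.835% to 1.93% in TG. All of these ranges overlapped, but some TG papillomas lay outside the CTR range. TG 3 lay above it for *Col18a1* and *Hspg2* and below it for *Sdc4* and, by little, *Sdc1*. TG 1 and TG 2 lay above it for *Gpc1*.

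Of 46 other genes of heparan sulfate synthesis, breakdown and core proteins, 34 were tested, and 0 passed the adjusted test in either direction (limma), as did 0 of all 12299 genes tested (0% in each direction). At an unadjusted p under 0.05, 3 of the 34 were higher in TG and 1 was lower, beside 4.86% and 1.96% of all genes. 1 of the 3 had a CTR mean of 0.473 FPKM and passed the filter of 0.5 FPKM only through TG. Under other filters, scalings, fits and sets of papillomas, 1 to 4 were higher and 0 to 2 lower (limma, unadjusted). 25 of the 34 had a higher mean in TG and 9 a lower one, with a median log2 difference of 0.22, and 21 were highest in TG 3. Without TG 3, 19 had a higher mean in TG and 15 a lower one, and the median was 0.01. Groups that did not overlap were seen for *Ndst2*, described above, and for the 3-O-sulfotransferase gene *Hs3st3b1*, named after its values had been seen. *Hs3st3b1* was at 0.341 to 0.747 FPKM in CTR and at 0.752, 1.45 and 0.878 FPKM in TG 1 to TG 3 (log2 difference 0.56, SE 0.26, limma adjusted p = 0.760).

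The median log2 difference was 0.05 over 5 genes of the linker to the core protein, 0.30 over 4 polymerase genes, 0.56 over 5 modifying enzymes, 0.09 over 5 genes of sulfate and sugar supply and 0.17 over 7 lysosomal enzymes. Without TG 3 these medians were -0.04, 0.12, 0.35, -0.05 and -0.04. Of 12 other modifying enzymes listed, only these 5 reached a mean of 0.5 FPKM. 1 of the 5 had a CTR mean of 0.473 FPKM and a TG mean of 1.21 FPKM, so it passed the filter only through TG. The median of 0.56 was the value of *Hs3st3b1*, whose CTR mean was 0.526 FPKM, near the filter. All 7 other core protein genes tested had a higher mean in TG, and all 7 were highest in TG 3 (median log2 difference 0.30). Without TG 3, 6 of the 7 had a higher mean and the median was 0.03. Among them *Sdc2* was at 1.51 to 2.99 FPKM in CTR and at 2.58, 2.70 and 5.30 FPKM in TG 1 to TG 3, a log2 difference of 0.56 (limma adjusted p = 0.810). *Gpc3* was at 3.08 FPKM in TG 3 and at most 0.303 in the other papillomas. It reached a mean of 0.5 FPKM only through TG 3, so its being highest there followed from the filter. *Sdc3*, *Gpc4* and *Agrn*, which encodes agrin, had log2 differences of 0.30, 0.12 and 0.28, with overlapping groups, and without TG 3 these were 0.03, -0.26 and 0.01. *Gpc6* had a mean under 0.5 FPKM and was not tested.

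For comparison, 13 of 16 genes of chondroitin and dermatan sulfate synthesis were tested, which use the same linker and the same sulfate donor. 9 had a higher mean in TG and 4 a lower one, with a median log2 difference of 0.27 (-0.03 without TG 3), and none passed the adjusted test (limma) or an unadjusted p under 0.05. Of 10 heparan sulfate-binding growth factor genes 5 were tested, with a median of 0.26 (0.34 without TG 3), and of 5 receptor genes 4, with a median of 0.37 (0.06 without TG 3). None of these 9 passed the adjusted test (limma). 1 growth factor gene was higher in TG at an unadjusted p under 0.05 (limma), beside 4.86% of all genes tested. Its CTR mean was 0.256 FPKM and its TG mean 0.985 FPKM, so it passed the filter of 0.5 FPKM only through TG. Among the marker lists, only *Tnnt3* of fast skeletal muscle and *Pdgfra* of fibroblasts had groups that did not overlap and a log2 difference of at least 1. *Tnnt3* was at 0 to 0.0669 FPKM in CTR and at 0.168, 0.590 and 98.2 FPKM in TG 1 to TG 3 (limma adjusted p = 0.794). *Pdgfra* was at 0.280 to 0.369 FPKM in CTR and at 0.563, 0.613 and 3.52 FPKM in TG 1 to TG 3 (limma adjusted p = 0.729). The CTR means of *Tnnt3* and *Pdgfra* were 0.0331 and 0.324 FPKM, so both passed the filter of 0.5 FPKM only through TG. That they were higher in TG followed in part from the filter. Every TG papilloma lay above every CTR papilloma for 4.93% of all genes tested.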

How the data were processed

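RNA-seq of 4 CTR and 3 TG papillomas was examined, grouped by the sample labels. Poly(A)+ RNA was made into stranded libraries and read from a single end. Per the labels and the methods, the authors aligned reads to GRCm38/mm10 with TopHat2 2.0.4, Bowtie 0.12.7 and SAMtools 0.1.16. The authors ran Cufflinks 1.3.0 on each library and deposited FPKM values for genes, each with an interval and a status. The labels and the methods name different RNA kits. Depth is not given and was inferred from interval widths, so it is approximate. Intervals cover counting error only.

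Entries of a symbol were summed (239 symbols had more than 1 locus), and 162 symbols with a failed estimate in any papilloma were left out, which left 23122. Locus starts were made 1-based. Values were analysed as log2(FPKM + 0.5), which understates changes of low genes. The 12299 genes whose mean reached 0.5 FPKM were fitted with limma 3.58.1 in R 4.3.3, with a variance trend, no covariate and Benjamini-Hochberg adjustment at 0.05. The filter used the mean over all papillomas, so genes of low level could pass it through the papillomas where they were high. The Cuffdiff test of the study starts from alignments and was not run. The fit was tested on simulated data. Python 3.11.15, pandas 2.3.3, numpy 2.4.6 and matplotlib 3.10.9 were used. Promoter windows came from RefSeq and overlapping genes from GENCODE, both on GRCm38.

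The members and all gene lists were chosen with earlier results of these data known. 1 gene of the lists is counted but not reported by name here. Named genes were the 10 members, *Nanog*, the other genes of the members' enzyme classes and core families, genes of other lists that passed the adjusted test or separated the groups with a log2 difference of at least 1 in size, and the 3 genes most like each of the 2 members with the largest differences. Outside this rule, other single genes of the marker lists, *Extl1* and *Hs3st3b1* were also named, and *Ankmy1* for its overlap with *Gpc1*. Each papilloma is from a different mouse, so p-values measure the spread between mice. Alternatives were other pseudocounts, filters, scalings and variance models, sample weights, a replicate block, the highest entry of a symbol and leaving out each papilloma. A fit of the 5 papillomas of lower depth was chosen after seeing the data.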

Additional observations from a re-analysis of the deposited data

How the results depend on the processing

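0 genes passed the adjusted test (limma) in either direction, with 598 higher and 241 lower at an unadjusted p under 0.05. With sample quality weights 49 were higher and 36 lower. Leaving out each papilloma in turn gave 0 to 9 higher and 0 to 8 lower, with 1 higher without CTR 3, 2 higher without TG 1, and 9 higher and 8 lower without TG 3. The papillomas of lower depth alone gave 1 higher. In these settings 0 of the other heparan sulfate genes passed. The median log2 difference of the 10 genes, 0.41, ran from 0.31 to 0.52 when each papilloma was left out among the genes then tested. It was 0.34 under upper-quartile scaling and under quantile normalization, which put the median of all genes at -0.01 and -0.03 in place of 0.06, and 0.05 with quality weights. With quality weights the log2 difference was -0.47 for *Hs6st1*, 0.14 for *Sdc1*, -0.07 for *Hspg2* and 0.00 for *Sulf1*. The causes were not tested. *Ext1* stayed higher (0.28 to 0.50) and *Hs6st2* lower (-0.70 to -1.79) in TG under every alternative that kept the gene. *Hs6st2* was not tested with a mean of at least 2 FPKM.

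TG and CTR papillomas share replicate numbers, but deviations of same-numbered papillomas correlated at -0.186, 0.0431 and -0.146, so the numbers were not treated as pairs. A replicate block gave 0 genes higher and 0 lower at the adjusted threshold, 505 and 170 at an unadjusted p under 0.05, and a median of 0.52 for the 10 genes.

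With 3 TG papillomas, 1 of which stood apart, the spread within TG was wide for most of the 10 genes. Low levels limit *Hs6st2* in TG 1 and TG 2 and *Sulf1* outside TG 3.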
